A study of Mus musculus with 20 samples.

Results

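The comparison set all mouse hippocampal cultures that had received a brief pulse of glutamate against cultures that had received the same handling without it. The 15 stimulated libraries and 5 control libraries make up all 20 libraries of the series, and the members are every gene that could be tested, 14411 of the 24419 counted. Stimulated means the average of 3 group means, so that the glutamate, glutamate with zinc and glutamate with TPA groups weighed equally and the control group was used once. This average difference is called the common response here. It asks which transcripts moved after glutamate on average over the 3 groups, and does not ask for a change in each zinc state.

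Dissociated hippocampal tissue of C57BL6 embryos at embryonic day 18, pooled from 4 embryos, was grown to day 10 in vitro in Neurobasal medium with B27, with 4 µM cytosine arabinoside, which kills dividing cells, from day 3 to day 6. All cultures, the controls included, were washed in a salt solution at room temperature, exposed to an added solution for 2 min, washed again, returned to their former medium and lysed 90 min later. The added solution was salt solution alone in the 5 control cultures, 50 µM glutamate in 5, 50 µM glutamate with 10 µM ZnCl2 in 5, and 50 µM glutamate with 10 µM TPA, a compound that binds zinc, in 5. The TPA cultures also had 1 min in TPA beforehand, which the controls did not have. No culture had ZnCl2 or TPA without glutamate. An effect of either compound by itself therefore cannot be told apart from a changed response to glutamate. The labels call the 5 cultures of a group biological replicates, but do not say whether they came from separate dissections, so the p-values speak only of the spread among the cultures sampled, which may be technical. In such mixed cultures, fewer cells of a type and less RNA per cell cannot be told apart.

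Glutamate is the main excitatory transmitter of the hippocampus. It opens AMPA and NMDA receptors, and the calcium that enters through NMDA receptors and voltage-gated channels activates kinases of the CaMK and ERK pathways, which reach the nucleus and phosphorylate factors already bound to DNA, such as CREB and the serum response factor SRF. The first genes to be transcribed, the immediate early genes, need no new protein, and many encode transcription factors (the FOS, JUN, EGR and NR4A families and Npas4) that act in turn on later genes such as Bdnf. Immediate early transcripts are mostly short-lived, so their level falls soon after a brief stimulus ends.

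Libraries held from 28692470 to 40934630 counted reads. Mean totals were 36326100 ± 3395110 (SD, n = 15) in stimulated and 38276900 ± 1691230 (SD, n = 5) in control cultures, a difference with p = 0.230 in a 2-sided exact permutation test (adjusted p = 0.460 over the 2 library checks). The 10 most abundant genes took 3.25% ± 0.0754 (SD, n = 15) and 3.26% ± 0.0294 (SD, n = 5) of the reads (exact permutation p = 0.894). Glutamate replicates 4 and 5 and zinc replicate 5 stood farthest from the mean of the other 4 libraries of their group. Their root mean square distances were 0.2995, 0.3107 and 0.2987 on the log2 scale, against 0.194 to 0.215 in the controls. Summed markers gave 5125 to 6149 CPM (read counts scaled to a common library size) for pan-neuronal markers, 1614 to 2195 CPM for excitatory neurons, 1119 to 1481 CPM for GABAergic interneurons, 714 to 935 CPM for astrocytes, 2.78 to 5.83 CPM for microglia and 31.9 to 39.9 CPM for the oligodendrocyte lineage, with 4 hemoglobin genes at 0 in all 20 libraries.

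In the stimulated cultures 7 transcripts rose and none fell. Fosb, Fos, Klf4, Npas4, Egr2, Nfkbiz and Cyr61 rose, by 1.60-fold to 2.52-fold. All but Cyr61, which encodes a secreted matrix protein now also called CCN1, encode factors that act in the nucleus on transcription. These 7 are 0.0486% of the 14411 genes tested (edgeR quasi-likelihood test, Benjamini-Hochberg adjusted p under 0.05). At an unadjusted p under 0.05 there were 642 genes (4.45%), 323 of them higher (2.24% of all) and 319 lower in stimulated cultures. No gene fell in that test, while DESeq2 called 13 genes as risen and 3 as fallen, and limma-voom called 6 as risen and none as fallen. In 6 genes (0.0416%) all 15 stimulated libraries lay above all 5 controls, and in none did they all lie below. Fos, Fosb, Klf4 and Nfkbiz were among these 6.

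**Figure D1:**
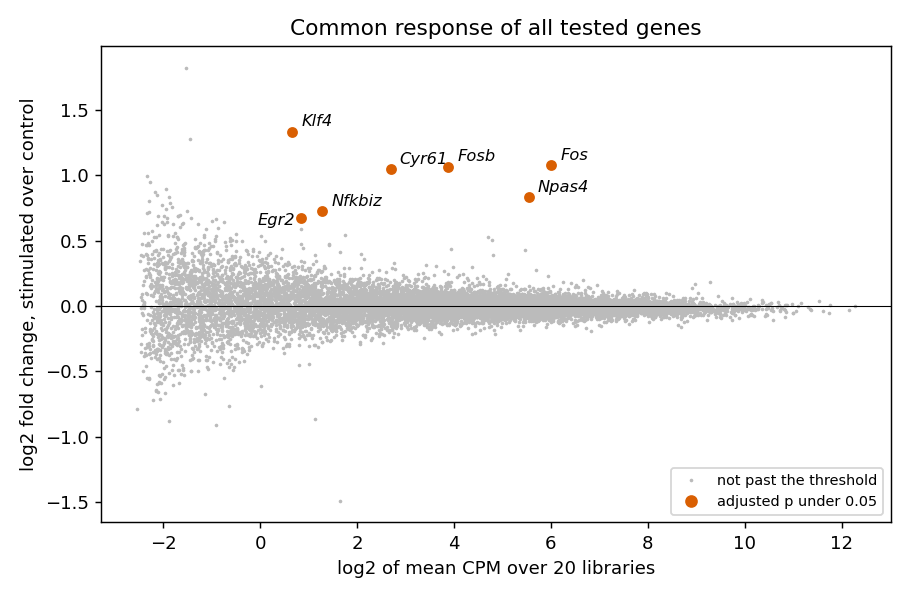
Log2 fold change of stimulated over control cultures (vertical axis) against the log2 of the mean CPM over 20 libraries (horizontal axis) for all 14411 tested genes, 1 point per gene. The 7 genes past the adjusted threshold are labelled, and all lie above 0, from 0.68 for Egr2 to 1.34 for Klf4.

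Fosb and Fos encode partners of JUN proteins in the AP-1 transcription factor, and Fosb also gives rise to the long-lived variant known as delta FosB, which gene-level counts do not separate. Fosb stood at 8.47, 7.17, 8.70, 7.45 and 8.47 CPM in the controls and at 11.8 to 22.0 CPM, with a median of 17.6, in the 15 stimulated libraries. The groups did not overlap, and the stimulated cultures exceeded the controls 2.09-fold (log2 fold change 1.07, SE 0.10, adjusted p = 9.48e-06). Its mean was 18.7 ± 3.07 CPM with glutamate, 14.3 ± 2.78 with added zinc and 17.9 ± 0.561 with TPA, against 8.05 ± 0.693 in controls (SD, n = 5 each).

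Fos was the most abundant of the 7 by length-scaled level, at 50.3 ± 6.47 TPM (a level that takes gene length into account; SD, n = 5) in controls. Its control libraries held 40.1, 33.2, 31.0, 31.7 and 39.3 CPM, and the stimulated libraries 45.5 to 102 CPM with a median of 75.1. Again no stimulated library reached down to the controls, and the rise was 2.11-fold (log2 fold change 1.08, SE 0.17, adjusted p = 0.0158). The spread was unequal: the TPA libraries held 73.0 to 86.0 CPM, whereas glutamate ran from 48.7 (replicate 5) to 102 CPM (replicate 4) and zinc from 45.5 (replicate 5) to 90.5 CPM (replicate 1).

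Klf4, a zinc finger factor of the Krüppel-like family best known for its part in pluripotency, showed the largest fold at the lowest level. Control libraries held 0.775, 0.867, 0.687, 0.736 and 0.510 CPM, and stimulated libraries 0.919 to 2.87 CPM with a median of 1.82. The groups lay apart, by 2.52-fold (log2 fold change 1.34, SE 0.16, adjusted p = 0.000103). With added zinc its mean was 1.22 ± 0.304 CPM, below the 2.11 ± 0.507 with glutamate and the 2.29 ± 0.138 with TPA (SD, n = 5 each). That difference among the 3 stimulated groups missed the threshold (adjusted p = 0.0545).

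Npas4 encodes a factor that is made in neurons after calcium entry. Its controls held 31.6, 27.3, 27.5, 25.7 and 32.7 CPM and the stimulated libraries 30.2 to 75.0 CPM, with a median of 53.1. Only zinc replicate 5, at 30.2 CPM, fell within the control range, and the rise was 1.78-fold (log2 fold change 0.83, SE 0.14, adjusted p = 0.0264). Egr2, a zinc finger factor also named Krox20, was scarce, at 0.997, 1.45, 1.17, 1.17 and 1.302 CPM in controls and 1.31 to 3.08 CPM (median 1.97) after stimulation. The lowest stimulated libraries overlapped the controls, 13 of 15 lay above all of them, and the rise was 1.60-fold (log2 fold change 0.68, SE 0.13, adjusted p = 0.0491).

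Nfkbiz encodes IκB-ζ, a nuclear member of the IκB family that binds NF-κB subunits. Its 5 control values of 1.55, 1.79, 1.47, 1.66 and 1.66 CPM lay below all stimulated values, which ran from 2.22 to 3.14 CPM with a median of 2.62. The rise was 1.65-fold (log2 fold change 0.72, SE 0.08, adjusted p = 5.94e-05). Cyr61 held 3.41, 3.04, 2.77, 3.63 and 4.75 CPM in controls and 4.46 to 11.99 CPM (median 7.25) in stimulated cultures. Zinc replicate 5 alone overlapped the controls, and the rise was 2.07-fold (log2 fold change 1.05, SE 0.18, adjusted p = 0.0242).

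The 7 calls differed in how far they rested on single libraries. With each of the 20 libraries left out in turn, Fosb, Klf4 and Nfkbiz were called every time, Fos was lost 3 times, Cyr61 4 times, Npas4 8 times and Egr2 16 times. All 4 were lost without control replicate 2, 3 or 4. Egr2 and Npas4 also missed the threshold with libraries scaled by their totals alone. Cyr61 was not among the genes called with a correction for GC content. That correction covered 13880 of 14411 tested genes and did not include Cyr61. The number of genes called ran from 3 to 11 over the 20 libraries left out, the highest without glutamate replicate 4.

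**Figure D2:**
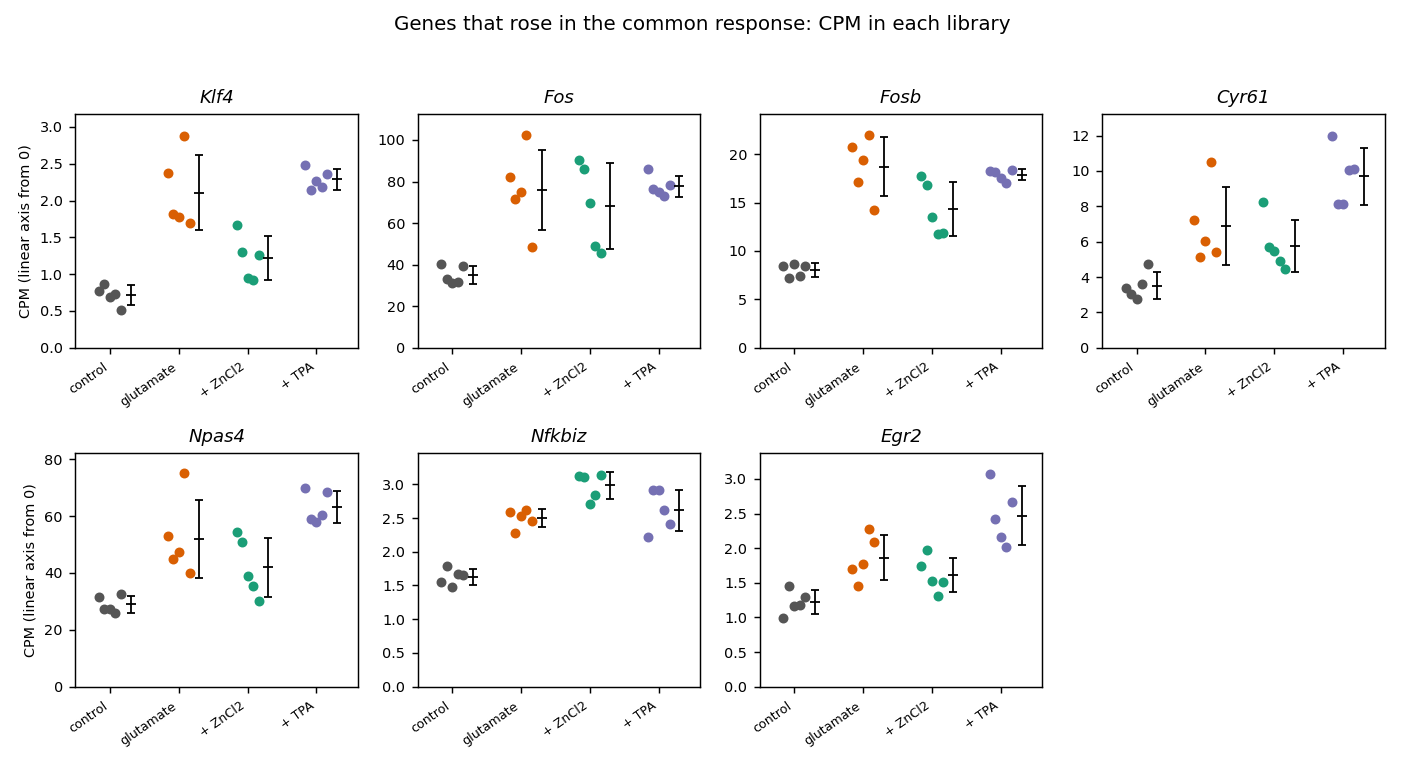
CPM of the 7 genes that rose (vertical axes, linear from 0) in each of 20 libraries, with 5 points per group and the group mean and SD beside them. The points of Fosb, Fos, Klf4 and Nfkbiz in the 3 stimulated groups lie above all control points, and the spread of Fos is wider with glutamate (SD 19.3) and zinc (SD 20.7) than with TPA (SD 5.02).

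In the mouse build mm10 the 7 genes lie on 7 chromosomes, as the deposited annotation gives them: Klf4 at chr4:55527137-55532475, Fos at chr12:85473901-85477270, Fosb at chr7:19302696-19310045, Cyr61 at chr3:145646971-145649985, Npas4 at chr19:4984355-4989971, Nfkbiz at chr16:55811377-55838641 and Egr2 at chr10:67537869-67542188. The counts cover the exons of each. They were compact genes: their median span from first to last base was 5339 bp (range 3015 to 27265, the longest being Nfkbiz), with a median of 5 exons. Over tested genes with an annotated position the medians were 23279 bp and 9 exons. Summed exon length did not set them apart in that way, at a median of 3044 bp against 3009 bp. Their median control level was 5.20 TPM (range 0.705 to 50.3), against 21.95 TPM over tested genes.

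RefSeq promoter windows of GRCm38.p6, from 250 bases before to 50 after the start of transcription, were found for 6 of the 7 genes. The CRE core TGACG, the left part of the motif that CREB binds, was searched on both strands. It was present in 6 of 6 windows, in 15 of 21 windows of the rapid immediate early genes described below (71.43%) and in 3579 of 11411 windows of all tested genes (31.36%). The full CRE, TGACGTCA, which contains the core on both strands, was in 0 of 6 windows, in 3 of 21 (14.29%) and in 369 of 11411 (3.234%). The AP-1 site, TGACTCA or TGAGTCA, was in 0 of 6, 0 of 21 and 367 of 11411 windows (3.216%). The EGR site, GCGGGGGCG or GCGTGGGCG, was in 2 of 6 (Klf4 and Fosb), 4 of 21 (19.05%) and 777 of 11411 windows (6.809%). A CArG box, the SRF motif, was in 1 of 6 (Egr2), 1 of 21 and 154 of 11411 windows (1.35%). A match describes the letters in the window and does not show a bound factor. Sequence outside the windows was not searched, so no match in a window does not mean that the gene lacks the site.

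The windows of 4 risen genes are printed because they show how these motifs are arranged: Fos (chr12:85473640-85473939, plus strand), Fosb (chr7:19309996-19310295, minus strand), Npas4 (chr19:4989922-4990221, minus strand) and Egr2 (chr10:67537619-67537918, plus strand), all 5′ to 3′ in the direction of the gene. Capitals mark CRE cores on either strand (TGACG or its complement CGTCA) and, in Egr2, the CArG box.
Fos: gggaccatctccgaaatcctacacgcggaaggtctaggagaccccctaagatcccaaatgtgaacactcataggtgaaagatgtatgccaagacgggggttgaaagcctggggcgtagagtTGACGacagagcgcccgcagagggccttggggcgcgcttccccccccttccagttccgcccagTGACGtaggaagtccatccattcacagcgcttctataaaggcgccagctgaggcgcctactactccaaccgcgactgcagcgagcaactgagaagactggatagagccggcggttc
Fosb: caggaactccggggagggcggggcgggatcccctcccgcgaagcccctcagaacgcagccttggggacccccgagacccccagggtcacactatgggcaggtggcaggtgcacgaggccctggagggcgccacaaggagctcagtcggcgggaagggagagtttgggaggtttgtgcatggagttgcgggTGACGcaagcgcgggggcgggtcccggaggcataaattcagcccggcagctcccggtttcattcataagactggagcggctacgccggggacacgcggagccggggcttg
Npas4: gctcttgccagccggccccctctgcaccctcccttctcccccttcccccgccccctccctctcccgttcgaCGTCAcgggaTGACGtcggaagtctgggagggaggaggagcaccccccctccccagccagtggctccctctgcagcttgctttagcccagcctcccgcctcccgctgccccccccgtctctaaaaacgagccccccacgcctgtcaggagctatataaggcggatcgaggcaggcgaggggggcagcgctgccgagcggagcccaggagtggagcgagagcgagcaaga
Egr2: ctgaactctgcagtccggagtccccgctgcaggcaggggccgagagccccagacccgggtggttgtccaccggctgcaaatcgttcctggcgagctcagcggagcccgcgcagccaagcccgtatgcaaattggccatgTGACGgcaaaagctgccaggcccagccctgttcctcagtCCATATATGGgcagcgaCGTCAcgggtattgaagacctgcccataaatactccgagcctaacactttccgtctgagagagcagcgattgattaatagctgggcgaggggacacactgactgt
Counted from the start of transcription, the cores of Fos begin at -129 and -66. The core of Fosb begins at -60, and an EGR site follows at -50. Npas4 has a pair on opposite strands, at -179 and -169, with 5 bases between them. The cores of Egr2 begin at -111 and -55, with the CArG box between them at -72. In Klf4 and Cyr61 (not printed) a core on the minus strand begins at -232 and -58.

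The 3 stimulated groups are each compared with the same 5 control libraries, so their values are set side by side and no likeness between them is drawn. Against control, 3 genes rose with glutamate alone (0.0208%), 3 rose and 3 fell with added zinc (0.0416% in all), and 10 rose with TPA (0.0694%). At an unadjusted p under 0.05 the 3 comparisons held 717 (4.98%), 1593 (11.1%) and 446 genes (3.09%). Fosb and Nfkbiz were past the threshold in each of the 3 comparisons: Fosb had adjusted p-values of 1.31e-05, 0.00304 and 2.86e-05, and Nfkbiz 0.0097, 7.72e-05 and 0.00188, for glutamate, zinc and TPA in that order. Klf4 had 0.000102, 0.187 and 2.86e-05, with log2 fold changes of 1.56, 0.77 and 1.68. Fos had 0.0502, 0.0923 and 0.0213, with log2 fold changes of 1.12, 0.96 and 1.15. For Npas4, Cyr61 and Egr2 only the TPA comparison passed (0.00457, 0.00188 and 0.00188), with log2 fold changes of 1.12, 1.46 and 1.02. Their changes with glutamate were 0.84, 0.97 and 0.61 and with zinc 0.54, 0.72 and 0.40. The test of the difference among the 3 stimulated groups was past the threshold for none of the 7 genes. Its adjusted p-values were 0.862 for Fos, 0.345 for Nfkbiz, 0.237 for Npas4, 0.232 for Fosb, 0.193 for Cyr61, 0.145 for Egr2 and 0.0545 for Klf4. Unadjusted, that test gave 0.571 for Fos and from 4.02e-05 (Klf4) to 0.0266 (Nfkbiz) for the others. Of all genes 11.9% had an unadjusted p under 0.05 in it. When the common response was taken without the TPA group, 3 genes remained past the threshold, Fosb, Klf4 and Nfkbiz.

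**Figure D3:**
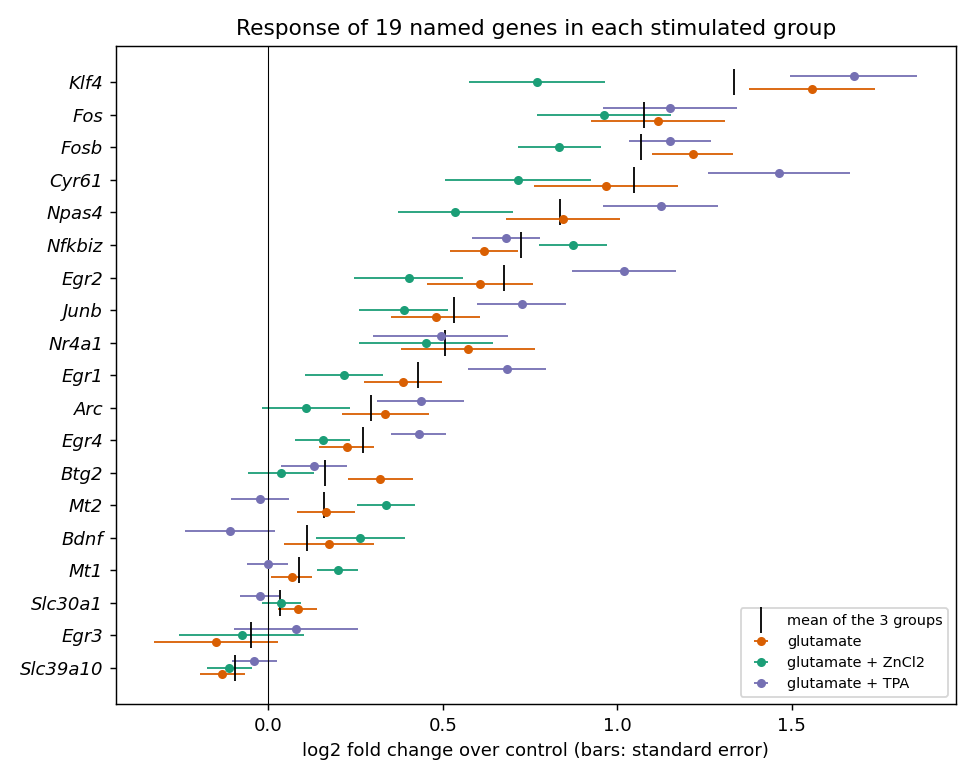
Log2 fold change over control (horizontal axis) of 19 named genes in the glutamate, glutamate with ZnCl2 and glutamate with TPA groups, as points with standard errors, with the mean of the 3 as a vertical tick. Fos lies at 1.12, 0.96 and 1.15 in the 3 groups, while Egr2 lies at 0.61, 0.40 and 1.02.

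The rapid immediate early genes, a list of transcripts that appear within minutes of activity, had 26 tested members. Of these 6 rose, the risen genes above other than Nfkbiz, and none fell. Their log2 fold changes were positive in 24 of 26, with a median of 0.30, where all tested genes had a median of -0.00053 and 49.6% positive. At an unadjusted p under 0.05 there were 16 members, all higher, against 4.45% of all genes. DESeq2 called 10 of the 26 and limma-voom 5. Set side by side, the group medians were 0.41 with glutamate, 0.39 with zinc and 0.37 with TPA, with 24, 24 and 19 members positive. Against control 2, 1 and 9 members rose in edgeR in the same order, as did 3, 3 and 10 of all genes. In the test among the 3 stimulated groups 14 of the 26 had an unadjusted p under 0.05, where 11.9% of all genes did. None passed after adjustment in edgeR, while DESeq2 passed 3 (206 of all genes) and limma-voom 1 (9 of all genes). Without the 3 libraries that stood farthest from their groups 10 passed in edgeR, as did 8.1% of all genes. The list was drawn up with results on these data known, so its counts are a description.

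Among those that missed the threshold were close relatives of the genes that rose. Junb, another AP-1 subunit, held 17.9 to 22.8 CPM in controls and 20.7 to 39.4 CPM after stimulation, above all controls in 13 of 15 libraries, a difference of 0.53 on the log2 scale (SE 0.11, adjusted p = 0.110). Jun, the partner of FOS proteins, differed by 0.20 on that scale (SE 0.04, adjusted p = 0.163). All 9 tested AP-1 subunits had positive values, 2 of them past the threshold, with a list median of 0.31.

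Egr1 held 29.3 to 41.8 CPM in controls and 34.7 to 63.1 CPM after stimulation, and 10 of 15 libraries were above all controls (log2 fold change 0.43, SE 0.09, adjusted p = 0.195). Egr4 held 11.6 to 12.5 CPM in controls and 11.6 to 17.5 CPM after stimulation, with 14 of 15 libraries above all controls (0.27, SE 0.06, adjusted p = 0.325). Egr3, the remaining EGR factor, had a value of -0.05 (SE 0.14, adjusted p = 1.00), and its stimulated libraries (27.4 to 52.9 CPM) spanned the controls (29.97 to 44.0 CPM). The 4 EGR factors had values from -0.05 to 0.68 under the same stimulus.

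Nr4a1, an orphan nuclear receptor, ran from 18.0 to 39.6 CPM in stimulated and 18.2 to 24.3 CPM in control libraries (log2 fold change 0.51, SE 0.16, adjusted p = 1.00), and its paralogs Nr4a2 and Nr4a3 had values of 0.07 and 0.03. Arc, a cytoskeletal protein of dendrites that promotes removal of AMPA receptors, had 0.29 (SE 0.10), from 2.96 to 4.13 CPM in controls and 3.46 to 6.15 CPM after stimulation. Gadd45g, a regulator of the cell cycle and of DNA demethylation, did not overlap between the groups: controls held 11.5 to 12.9 CPM and stimulated libraries 13.5 to 24.3 CPM (0.43, SE 0.11, adjusted p = 0.514). The last of the 6 genes with no overlap was Tmem163, a zinc-binding protein of synaptic vesicles, at 15.8 to 16.6 CPM in controls and 16.7 to 19.7 CPM after stimulation (0.12, SE 0.04, adjusted p = 1.00), named here after its values were seen.

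The stimulated libraries with the lowest Fos, glutamate replicate 5 and zinc replicates 4 and 5, were low in several of these genes but not in all. The mean log2(CPM + 0.5) of the rapid list was 3.19 to 3.31 in controls, 3.61 to 3.73 with TPA, 3.43 to 3.97 with glutamate and 3.27 to 3.76 with zinc, and the lowest stimulated values were those of glutamate replicate 5 and zinc replicate 5. Zinc replicate 4 came next, at 3.44. Glutamate replicate 5 was the highest of its group in Egr4 (15.8 CPM) and second to replicate 4 in Egr1, Egr2, Junb and Arc. In glutamate replicate 5 and zinc replicate 5 Egr3 was the highest of its group, at 49.7 and 52.9 CPM. Bdnf was lowest of its group there, at 102 and 127 CPM, against 154 to 181 and 135 to 192 CPM in the other libraries of those groups. The same libraries had the highest sums of excitatory neuron markers among the 20, 2140 and 2195 CPM (the others reached 2057 CPM at most), and the lowest sums of GABAergic interneuron markers, 1119 and 1222 CPM (the others 1234 CPM at least). The part of these cell types in the gene values was not tested. The common response held 7 genes without glutamate replicate 5, 6 without zinc replicate 5, 11 without glutamate replicate 4, and 13 (11 risen, 2 fallen) without all 3.

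Delayed activity-regulated genes, which follow the first wave, had 40 tested members, of which none rose or fell in the edgeR test. An unadjusted p under 0.05 was reached by 4 of the 40, against 4.45% of all genes. DESeq2 and limma-voom called none of the 40 in the common response either. Still, 37 of 40 values were positive, with a median of 0.063. Set side by side, the median was 0.11 with glutamate (36 of 40 positive), 0.11 with zinc (39 of 40) and -0.044 with TPA (13 of 40). Bdnf, a neurotrophin, had values of 0.17, 0.26 and -0.11 (common response 0.11, SE 0.11, adjusted p = 1.00), on a level of 122 to 148 CPM in controls. Sik1, a kinase that restrains CREB coactivators, had a common response of 0.13 (SE 0.04, adjusted p = 0.812) and values of 0.18, 0.03 and 0.18.

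Stress genes gave small values of the same kind. Genes of the ATF4 integrated stress response, which serve amino acid supply when translation initiation is slowed, had 24 tested members. In the common response none passed in edgeR, DESeq2 or limma-voom. At an unadjusted p under 0.05 there was 1 member, against 4.45% of all genes. All 24 had positive common values (median 0.098), and the medians were 0.13 with glutamate, 0.16 with zinc and -0.023 with TPA, with 24, 24 and 5 members positive. Genes of the unfolded protein response, which encode chaperones and folding enzymes of the endoplasmic reticulum, had 20 tested members. None passed in the common response in the 3 tools, and 1 had an unadjusted p under 0.05. Their median was 0.11, with 18 of 20 positive, and the group medians were 0.15, 0.23 and -0.031, with 20, 19 and 2 positive. Hsp90b1, a chaperone, had 0.16, 0.29 and -0.05, and Psat1, an enzyme of serine synthesis, had 0.25, 0.36 and -0.05. In the test among the 3 stimulated groups, 13 of the 20 unfolded protein response genes had an unadjusted p under 0.05. So did 6 of the 24 ATF4 genes and 11.9% of all genes. None of either list passed after adjustment in edgeR or limma-voom, while DESeq2 passed 3 and 1 of them (206 of all genes). Without the 3 libraries that stood farthest from their groups, 14 and 10 of them passed in edgeR, as did 1179 of 14550 genes tested (8.1%).

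**Figure D4:**
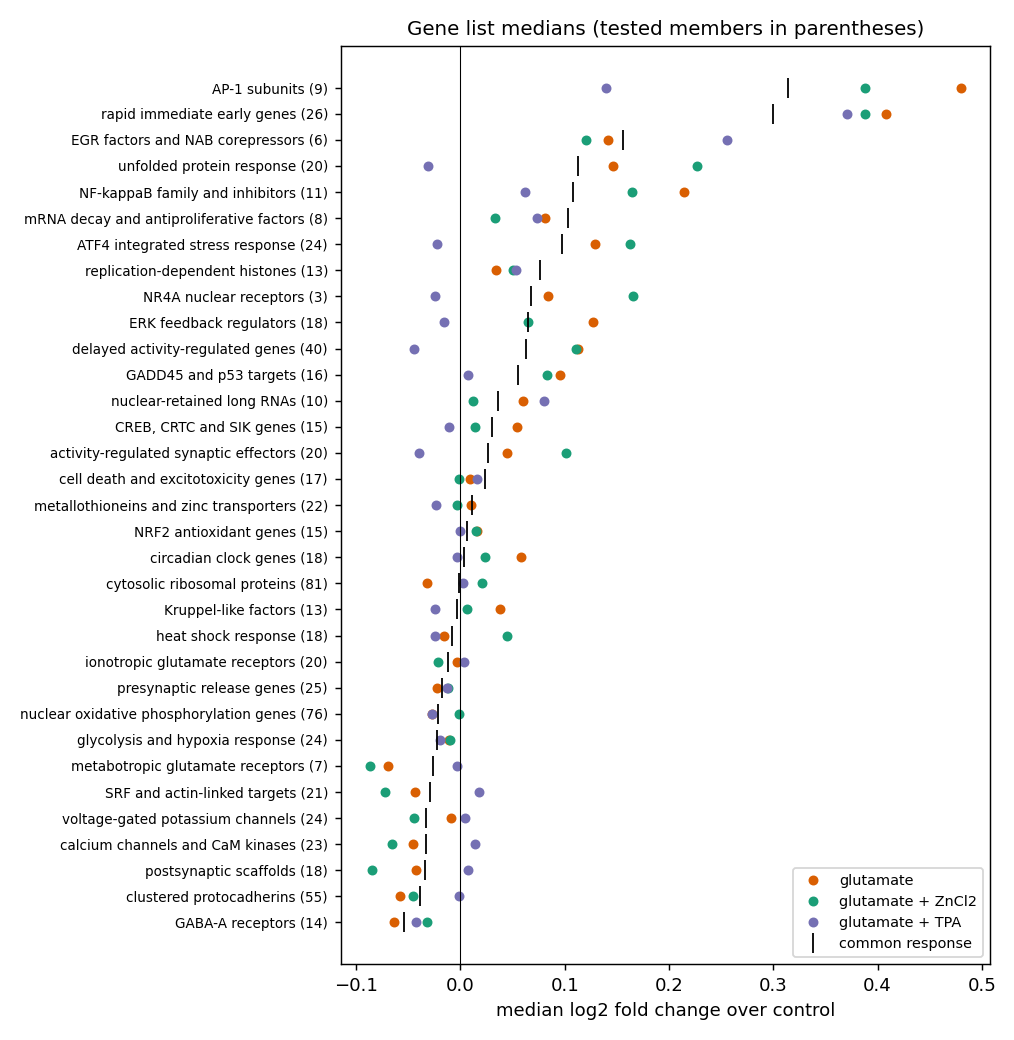
Median log2 fold change over control (horizontal axis) of 33 gene lists, with a point for each stimulated group and a tick for the common response. The rapid immediate early genes lie at 0.41, 0.39 and 0.37 with glutamate, zinc and TPA, with 24, 24 and 19 of 26 members positive. The unfolded protein response lies at 0.15, 0.23 and -0.031, with 20, 19 and 2 of 20 positive.

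Among further regulators single members rose. Of 11 tested NF-κB subunits and inhibitors only Nfkbiz rose, and the median was 0.11, with Nfkbid, another nuclear IκB protein, at 0.32 (SE 0.13, adjusted p = 1.00) and Nfkb1, the p105/p50 subunit, at 0.12. Of 13 Krüppel-like factors only Klf4 rose, and the median was -0.0034. Of 18 ERK feedback regulators none passed in edgeR, DESeq2 or limma-voom, and the median was 0.065. An unadjusted p under 0.05 was reached by 1 of the 18, against 4.45% of all genes. The phosphatases Dusp1 and Dusp6, which remove phosphate from MAP kinases, had 0.30 (SE 0.15) and 0.25 (SE 0.10). Of 21 SRF and actin-linked targets only Cyr61 rose, and the median was -0.029. Acta2, smooth muscle actin, had -0.76 (SE 0.20, adjusted p = 0.643) at a mean of 0.642 CPM, and was called as fallen by limma-voom with library weights.

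Receptors and channels that receive and shape the glutamate signal showed no call in the common response. The lists held 20 ionotropic glutamate receptor genes, 7 metabotropic receptors, 14 GABA receptor subunits and 23 calcium channel and CaM kinase genes. They also held 24 voltage-gated potassium channels, 25 presynaptic and 18 postsynaptic genes. None passed in that response in edgeR, DESeq2 or limma-voom. None had an unadjusted p under 0.05, where 4.45% of all genes did. The medians ran from -0.054 for the GABA receptors (2 of 14 positive) to -0.012 for the ionotropic glutamate receptors (9 of 20 positive). The widest ionotropic values were -0.13 for Grin2a and 0.27 for Grin2c, both NMDA receptor subunits, the second at a mean of only 0.402 CPM. Among cell death and excitotoxicity genes, 17 tested, none passed in the 3 tools and 1 had an unadjusted p under 0.05, against 4.45% of all genes. The member with that p was Capn1, a calcium-activated protease, at -0.24, with -0.24, -0.22 and -0.26 in the 3 groups.

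Of 22 tested metallothioneins and zinc transporters none passed in the common response in the 3 tools. An unadjusted p under 0.05 was reached by 2 of the 22, Mt2 and Mt3, and by 4.45% of all genes. The metallothioneins Mt1 and Mt2, zinc-binding proteins whose genes are turned on by zinc, had common values of 0.09 (SE 0.05) and 0.16 (SE 0.07). With glutamate, zinc and TPA, Mt2 stood at 0.17, 0.34 and -0.02. Mt3, the metallothionein of the brain, had a common value of -0.15 (SE 0.07, adjusted p = 1.00). The zinc exporter Slc30a1 and the importer Slc39a10 had 0.03 (SE 0.05) and -0.09 (SE 0.05).

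The genes with the smallest p among those lower in stimulated cultures were Slc7a4, a member of the cationic amino acid transporter family, at -0.15 (SE 0.03, adjusted p = 0.110), and Rpph1, the RNA of ribonuclease P, at -0.91 (SE 0.19, adjusted p = 0.110) and a mean of 0.532 CPM. For a gene of ordinary level the data could show small changes. Of 12519 tested genes that averaged 1 CPM or more, 10338 (82.6%) had a 95% interval of the common response wholly within 1.2-fold of no change. The median standard error of these 12519 genes was 0.0513.

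The stimulated groups differed from each other in 5 genes (0.0347%), none of which passed the threshold in the common response. Hmgb2, a chromatin protein, held 2.45 ± 0.141 CPM in controls, 3.22 ± 0.688 with glutamate, 4.30 ± 0.353 with zinc and 2.52 ± 0.297 with TPA (SD, n = 5 each). All 5 zinc libraries (3.75 to 4.70 CPM) lay above all TPA libraries (2.16 to 2.89 CPM), and the adjusted p of the difference was 0.0330. The common value of Hmgb2 was 0.41 (SE 0.10, adjusted p = 0.383), and it rose with zinc against control (adjusted p = 0.00304). Hmgb2 is also among the markers of dividing cells. The other 6 of these markers summed to 8.17 to 10.5 CPM with zinc, 7.37 to 10.4 CPM in controls and 8.74 to 9.34 CPM with TPA, ranges that overlapped.

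The other four were lowest with zinc and highest with TPA. Plxna3, a semaphorin receptor, held 94.0 ± 3.66 CPM with zinc, 99.8 ± 3.85 with glutamate and 113 ± 4.69 with TPA, against 110 ± 5.56 in controls (adjusted p = 0.0330). With zinc against control Plxna3 fell (adjusted p = 0.0418). Ypel1, a nuclear protein of the yippee-like family, held 94.2 ± 4.06, 97.2 ± 6.24 and 112 ± 2.60 CPM in the same order, against 106 ± 2.40 (adjusted p = 0.0330). Flna, the actin crosslinker filamin A, held 174 ± 11.3, 199 ± 24.5 and 238 ± 19.9 CPM, against 210 ± 13.3 (adjusted p = 0.0483). Pex6, a peroxisome assembly factor, held 33.1 ± 1.96, 36.4 ± 0.838 and 39.5 ± 1.40 CPM, against 37.6 ± 0.743 (adjusted p = 0.0383). In each of these 4 genes the zinc libraries lay below all TPA libraries, and the common values of -0.05 to -0.11 average values of opposite sign. The count of such genes moved with the scaling and with single libraries: it was 0 with library size alone, 0 in 8 of the 20 runs that left out 1 library (control replicate 3, glutamate replicate 3, zinc replicates 2 and 3, and TPA replicates 2, 3, 4 and 5), and 285 without zinc replicate 4.

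**Figure D5:**
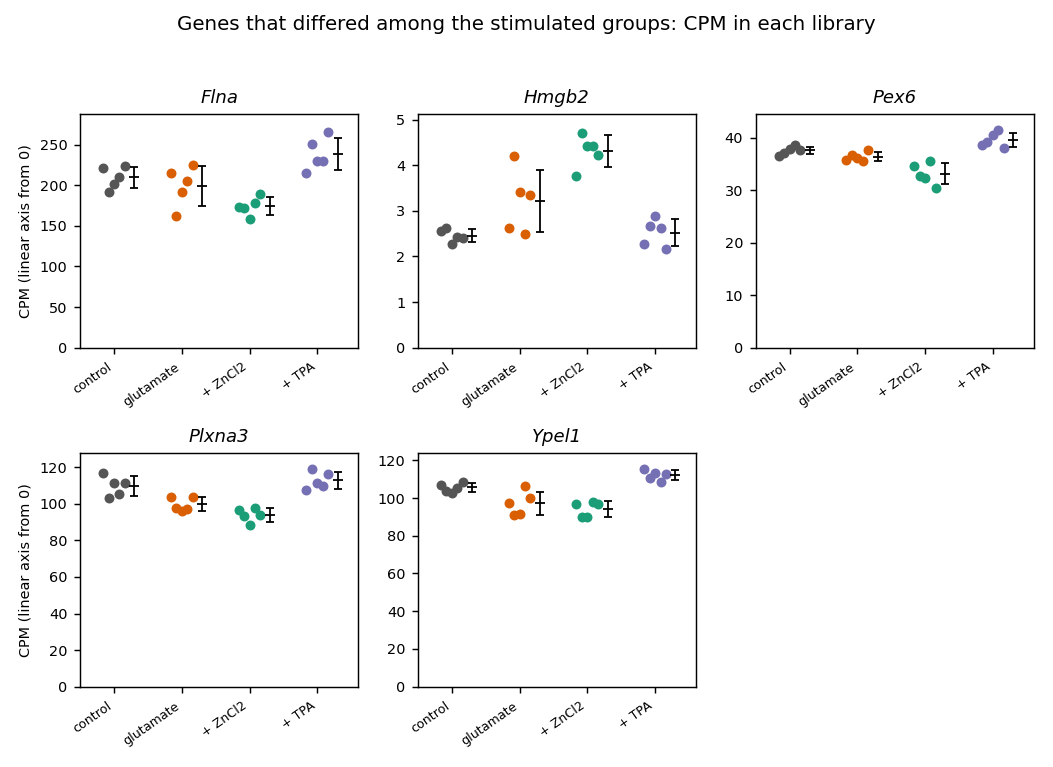
CPM of the 5 genes that differed among the stimulated groups (vertical axes, linear from 0) in each of 20 libraries, with the group mean and SD beside the points. Hmgb2 is highest with zinc (3.75 to 4.70 CPM), and Flna, Pex6, Plxna3 and Ypel1 are lowest with zinc and highest with TPA.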

How the data were processed

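Polyadenylated RNA of 20 cultures in 4 groups of 5 was sequenced. The authors deposited whole-number gene counts, which entered every test here. They also deposited TPM values, used here as length-scaled levels of controls, and an annotation table with gene length and mm10 position. Per the submitters' processing notes, reads passed through featureCounts, HISAT2 2.1.0, Trimmomatic 0.36 and SAMtools 1.3.1. The strand setting of the counting is not stated in those notes, so overlapping and antisense genes may share reads. The authors' own comparison tables were not used.

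The default filter of edgeR left 14411 genes with 99.98% of counts. All comparisons were contrasts fitted together to the 20 libraries by edgeR's quasi-likelihood method (version 4.0.16, R 4.3.3, TMM scaling, 4 group means, robust spread estimate, no covariate), with Benjamini-Hochberg adjustment over all tested genes and a threshold of 0.05. The difference among the stimulated groups was a single F test of equal means. "Rose" and "fell" are used of genes past that threshold. Alternatives used DESeq2 1.42.0, limma 3.58.1 (voom, also with library weights), other scalings and filters, the replicate number as a block, and libraries or groups left out. The code was tested on simulated data. No 2 libraries held identical counts.

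Named genes are those past the threshold with the largest changes and a mean of at least 1 CPM, 18 chosen genes, those that differed among stimulated groups, and up to 3 of each list with the smallest p; members at list extremes and the genes lowest by p or without overlap were added after their values were seen. Genes and lists were chosen with earlier results of these data known. The list of mitochondrially encoded genes and the blood markers had no tested member.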

Additional observations from a re-analysis of the deposited data

Results flagged for a closer look

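The combinations examined paired each group with a gene, with the total of counted reads or with the share of the most abundant genes. Single libraries lay far from the other 4 of their group in 4 of these 104 combinations, where chance gives about 1 in 20. They were Egr3 in glutamate replicate 5 (49.7 CPM, others 29.5 to 31.2), Junb in control replicate 5 (22.8 CPM, others 17.9 to 19.2), Btg2 in TPA replicate 1 (8.76 CPM, others 7.79 to 8.04) and Slc39a10 in zinc replicate 5 (118 CPM, others 87.1 to 94.5).

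The means of the 3 stimulated groups differed in 5 genes by the edgeR test of that difference: Ypel1 (adjusted p = 0.0330, log2 fold changes of -0.12 with glutamate, -0.16 with zinc and 0.09 with TPA), Plxna3 (0.0330, with -0.14, -0.22 and 0.04), Hmgb2 (0.0330, with 0.39, 0.81 and 0.04), Pex6 (0.0383, with -0.05, -0.18 and 0.07) and Flna (0.0483, with -0.07, -0.27 and 0.18).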

How the results depend on the processing

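The 7 genes of the common response became 16 (13 risen) with DESeq2, 33 (18 risen) with limma-voom and library weights, 3 without the low-count filter, 4 with the stimulated libraries as 1 group of 15 and 3 without the TPA group. In settings added after the data were seen they became 11 (10 risen) with a GC offset and 13 (11 risen) without the 3 farthest libraries. The GC offset covered 13880 genes, without Cyr61. Leaving out 1 library gave 3 to 11. Fosb, Klf4 and Nfkbiz were called in all settings run.

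The 3 genes called with glutamate became 5 with DESeq2's size factors, 14 with DESeq2, 59 with library weights, 5 at a minimum of 1 CPM, 6 without the robust spread and 100 without the 3 farthest libraries, and 2 to 5 with 1 library left out. The 6 called with zinc became 64, 1825 and 231 with DESeq2, library weights and without those libraries, and 3 to 100 with 1 left out, the highest without zinc replicate 4. The 10 called with TPA became 6 to 11 with 1 left out and 8 to 12 in the other settings. The 5 genes that differed among the stimulated groups became 0 with library size alone, 206 with DESeq2, 9 with limma-voom, 2458 with library weights, 10 without a filter, 10 at a minimum of 1 CPM, 2 with the GC offset, 1179 when the 3 farthest were dropped, and 0 to 285 with 1 left out. The cause of these shifts was not tested.

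With the replicate number as a block, 6 genes were called in the common response (Egr2 and Npas4 lost, Jun gained), 2 with glutamate, 39 with zinc, 10 with TPA and 80 among the groups. The labels do not say that a number marks a shared source, and not every pair deviated together, so the numbers were not taken as pairs. Deviations of same-numbered libraries correlated at -0.0699 to 0.497 over 30 pairs (median 0.0564, against -0.0205 for other numbers), 11 of them over 0.1, and 9 of 20 libraries were closest to their own number.

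Signs turned in 5 genes, none of them called in the common response: Egr3 became 0.00095 and Hsp90aa1 0.0055 without the glutamate group, Egr3 ran from -0.12 to 0.013 with 1 library left out, and Pex6, Flna and Miat became 0.015, 0.057 and 0.029 without the zinc group. Of the other recomputed gene values 3557 kept their direction and side of the threshold, 49 dropped below it and 20 passed it. List medians changed sign in 44 of 1155 recomputed values, in 10 of 33 lists, all with medians of at most 0.036 in size, among them the ionotropic glutamate receptors (0.0044 without the zinc group), heat shock genes and Krüppel-like factors. The values of genes under 1 CPM were the least certain. Over all 14411 genes the interval lay wholly within 1.2-fold of no change for 71.8%, against 82.6% of those at 1 CPM or more.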

Other observations

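Housekeeping, structural and other gene groups held no gene past the threshold of the common response in edgeR, DESeq2 or limma-voom. The median log2 fold change in the common response was -0.0018 for 81 cytosolic ribosomal protein genes (37 positive), -0.021 for 76 nuclear genes of oxidative phosphorylation (22 positive, with Atp5k, a subunit of ATP synthase, at -0.19) and -0.022 for 24 genes of glycolysis and the hypoxia response. Clustered protocadherins, cell surface proteins that give neurons their identity, had a median of -0.039 over 55 members, 13 of them positive. The median was 0.0038 for 18 circadian clock genes, -0.0076 for 18 heat shock genes, 0.0066 for 15 antioxidant genes of the NRF2 pathway, 0.036 for 10 nuclear-retained long RNAs and 0.077 for 13 replication-dependent histones. Unadjusted p-values under 0.05 were reached by 0 of 81, 2 of 76, 1 of 24, 3 of 55, 2 of 18, 0 of 18, 1 of 15, 1 of 10 and 2 of 13 of these genes, in the same order. Of all genes 4.45% reached them.

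Smaller groups near the early genes were 8 factors of mRNA decay and growth arrest (median 0.10, with Tob1 at 0.18), 16 GADD45 and p53 targets (median 0.055), 15 genes of CREB, its coactivators and the SIK kinases (median 0.030) and 20 activity-regulated synaptic effectors (median 0.027). In the common response none passed in edgeR or limma-voom, and DESeq2 called Gadd45g. Unadjusted p-values under 0.05 were reached by 2 of 8, 3 of 16, 2 of 15 and 1 of 20, and by 4.45% of all genes.

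Zfhx3, a large homeobox factor named after its values were seen, differed by 1.28 on the log2 scale (SE 0.33, adjusted p = 0.514), from 0.0765 to 0.273 CPM in controls and 0.221 to 0.730 CPM in stimulated libraries, 13 of which lay above all controls.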
